A study of Mus musculus with 12 samples.

Results

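The kinesin family was followed across cultured mouse oligodendrocyte progenitor cells that received a miR-27a mimic or a control mimic. Its members were taken as every gene of the deposited expression table whose symbol begins with Kif or Kifc followed by a number, which gave 39 of 20540 genes. They were sorted by known role into 13 mitotic kinesins, 15 transport kinesins and 11 regulators of microtubules, cilia and signalling. Cenpe, a centromere kinesin whose symbol does not follow that pattern, was placed with the mitotic partner genes.

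Kinesins are motor proteins that use ATP to move along microtubules or to take tubulin off their ends. Mitotic kinesins build the spindle, align chromosomes and complete cytokinesis, and their transcripts are made mainly in cells that are about to divide. Most transport kinesins carry vesicles, mitochondria and RNA granules outward, and in oligodendrocytes some of them take myelin mRNA into the processes.

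The cells were labelled as oligodendrocyte progenitors (OPCs), the dividing precursors of myelinating oligodendrocytes, taken from brain tissue of C57BL/6 pups aged 6 to 7 days after birth, and were grown in proliferation medium given in the labels as SATO with PDGFRA. All 4 groups received a biotin-tagged mimic, which is a synthetic microRNA, and no untransfected cells were analysed here. The groups were whole-cell RNA after control mimic, whole-cell RNA after miR-27a mimic, pulldown RNA after control mimic and pulldown RNA after miR-27a mimic, with 3 libraries each. Nothing in the labels says that these libraries came from separate cultures, so each p-value measures the spread between the libraries, which may be technical.

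Levels are counts per 1000000 reads of the library's normalised total (CPM), and 15548418 to 24972188 reads were assigned to genes per library. At these depths 3 reads corresponded to 0.116 to 0.2 CPM, and all 39 kinesins passed the filter of at least 1 CPM in 3 libraries. The summed level of 8 OPC markers was 2067 to 2137 CPM in whole-cell libraries, beside 10850 to 11910 CPM for 8 mature oligodendrocyte markers and 6398 to 7799 CPM for 7 astrocyte markers, so markers of other glial types were present in the RNA. Pulldown miR-27a replicate 2 stood apart from the other 11 libraries on the third principal component. Values without it are given where it changed a call and for some genes in which it was far from its group.

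The guide strand of the mimic is represented by the mature mouse microRNA in RefSeq, which lies at chr8:84208727-84208747 on the plus strand of GRCm38.p6. It is shown because its seed (bases 2 to 8, in capitals) defines the site letters searched in kinesin transcripts.
mmu-miR-27a-3p: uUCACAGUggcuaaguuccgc

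Three-prime untranslated regions were searched for ACTGTGAA (the 8mer), ACTGTGA (7mer-m8) and CTGTGAA (7mer-A1) on the transcribed strand, where the 8mer overlaps both 7mers. None of the 39 kinesins held the 8mer, against 6.16% of 15560 genes with such a region, and 9 kinesins (23.1%) held a 7mer, against 27.9% of those genes with any of the 3 sites. The share with any site is near that of all genes. The 9 were Kif14 with 3 sites, Kif5c with 2, and Kif1c, Kif3b, Kif15, Kif18b, Kif21a, Kif21b and Kifc2 with 1 each. The 3 sites of Kif14, a kinesin of cytokinesis, and the single 7mer-m8 sites of Kif18b, Kif1c and Kif21a are shown because these genes differed in their calls. The matching letters are in capitals, and all lie in 3' untranslated exons of GRCm38, on the plus strand for Kif14 and Kif1c and on the minus strand for Kif18b and Kif21a.
Kif14 site at chr1:136529118-136529147: gagttcatacgCTGTGAAgtacgcggaagg
Kif14 site at chr1:136530409-136530438: ctcagcagtgtACTGTGAtggttagtttta
Kif14 site at chr1:136531281-136531310: agctggtcgatCTGTGAAttgtggatatct
Kif18b site at chr11:102905714-102905743: ggagagaggggACTGTGAggatagagcctt
Kif1c site at chr11:70730744-70730773: gaagcctgttgACTGTGActcgggacctgg
Kif21a site at chr15:90934404-90934433: cagaagccgacACTGTGAcgacgctccgtg

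Promoter letters divided the family by role. The cell cycle homology region (CHR) is a short element of many genes expressed late in the cell cycle, often beside a CCAAT box. RefSeq windows of 300 bases, from 250 before to 50 after the annotated start, were searched on both strands for TTTGAA or TTCGAA (CHR) and for CCAAT. CHR letters stood in 11 of 12 mitotic kinesin windows (91.7%), 1 of 12 transport windows (8.3%), 3 of 11 regulator windows (27.3%) and 19.2% of 32851 windows of all genes. Within 50 bases of the start they stood in 9 of 12 mitotic windows (75.0%), against 5.3% of all windows, a range chosen after the positions were seen. CCAAT was found in 66.7% of mitotic, 33.3% of transport, 36.4% of regulator and 37.4% of all windows. Kifc1 and Kifc5b, near-identical copies, each count as a mitotic window in all of these shares. The Kif14 window (chr1:136467598-136467897) lies inside its GENCODE gene, chr1:136466343-136531511. The Kif2c window (chr4:117178723-117179022) lies inside chr4:117159639-117182639. Windows of Kif4, Kif17 and Kif27 and the Kif1a window with CHR letters also lie inside their genes. These matches are letters only, and no binding was measured.

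The stretches around the start of 6 mitotic kinesins are shown because their transcripts rose in both RNA fractions and their windows hold these letters, in capitals, in the sense direction or as the reverse complement TTCAAA. Coordinates are those of GRCm38.p6. Kif20b holds 2 adjoining matches. Kif11, Kif15, Kif20b and Kif4 lie on the plus strand, and Kif22 and Kif23 on the minus strand.
Kif11 at chr19:37376351-37376380: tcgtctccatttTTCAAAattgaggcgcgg
Kif15 at chr9:122951050-122951079: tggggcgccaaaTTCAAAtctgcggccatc
Kif22 at chr7:127042420-127042449: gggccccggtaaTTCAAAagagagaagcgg
Kif23 at chr9:61946780-61946809: ctgattggcctgTTTGAAatgcgccgggcg
Kif20b at chr19:34922353-34922382: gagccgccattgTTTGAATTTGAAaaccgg
Kif4 at chrX:100626072-100626101: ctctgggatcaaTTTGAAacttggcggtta

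**Figure D1:**
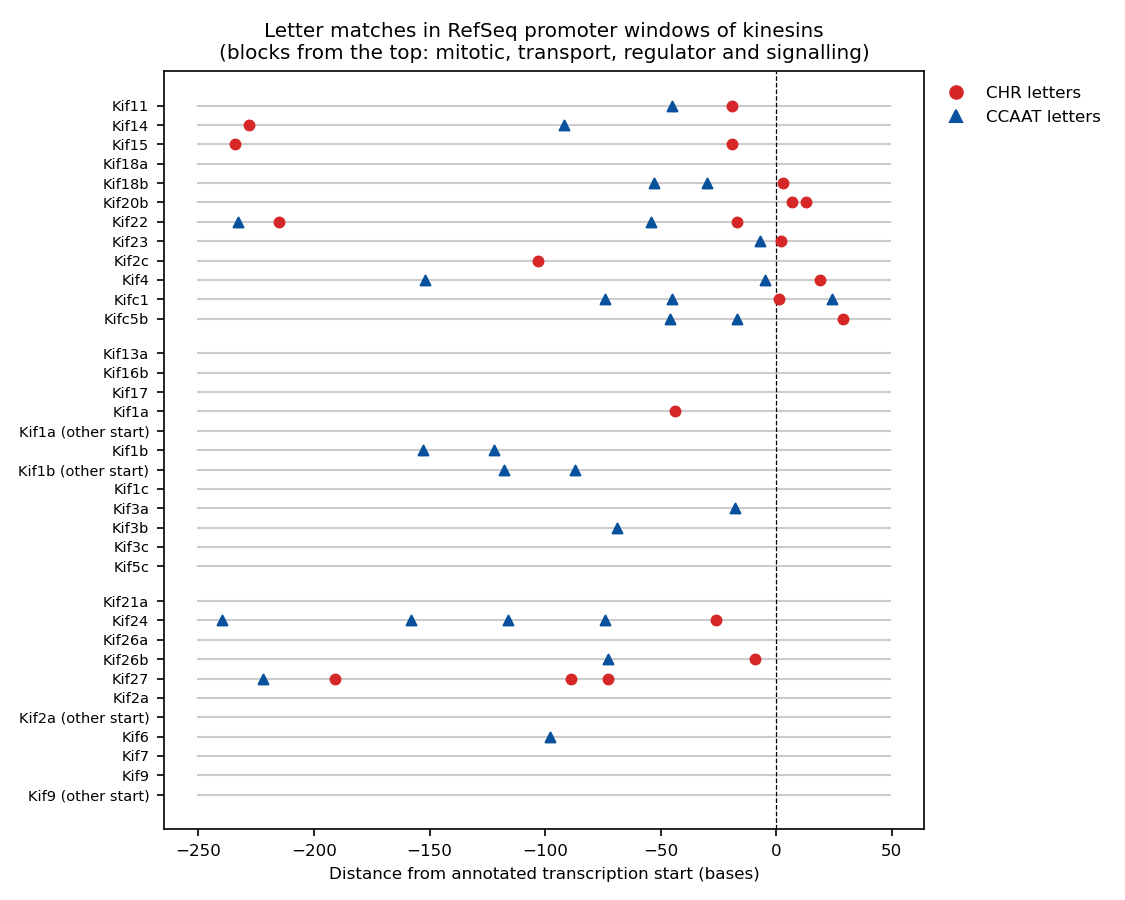
Positions of CHR letters (circles) and CCAAT letters (triangles) in the RefSeq promoter windows of kinesins, in bases from the annotated start (dashed line), with 1 line per window and "other start" for a further window of the same gene. CHR letters gather near the start in the mitotic block at the top, where 11 of 12 windows hold them, and are found in 1 of 12 transport windows. The near-identical copies Kifc1 and Kifc5b have a window each.

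Per kilobase of exon, the family was led by transport motors. Kif5b, the heavy chain of conventional kinesin, averaged 97.1 CPM per kb over all libraries, followed by Kif3a at 44.0, Kif13a at 35.9 and Kif1b at 31.6 CPM per kb. The highest mitotic member was Kif11, the spindle motor that pushes the poles apart, at 16.8 CPM per kb. Kif26b, Kif6, Kif27 and Kif17 were lowest, at 0.233 to 0.335 CPM per kb. Transport kinesins made up 76.2% to 77.5% of the summed kinesin CPM in the 3 whole-cell control libraries and mitotic kinesins 11.6% to 12.1%.

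The first comparison asked how kinesin transcripts differed between cells with the miR-27a mimic and cells with the control mimic. In whole-cell RNA, 21 of 39 kinesins rose and 2 fell by limma with Benjamini-Hochberg adjustment over all genes tested. Of all 13393 genes tested, 13.0% rose and 11.9% fell. The mitotic kinesins accounted for 12 of the rises, with 0 falls among 13. Their median log2 change was 0.59, against 0.01 over all genes tested. All changes here are differences of log2(CPM + 1), a scale that understates the change of low genes. In bulk RNA, a change in the number of cells of a type and a change in RNA per cell cannot be told apart.

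The summed level of the 13 mitotic kinesins was 421.4 to 441.8 CPM in whole-cell control libraries and 646.9 to 672.0 CPM in whole-cell miR-27a libraries. The same sum was 315.7 to 346.0 CPM in pulldown control libraries and 559.0 to 582.7 CPM in pulldown miR-27a libraries. In both fractions every miR-27a library lay above every control library. For single genes, this held for 12 of 13 mitotic kinesins in whole-cell RNA, against 20.3% of all genes tested, and for 12 of 13 in the pulldown, against 14.4%.

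Kif11 had 108.8, 108.2 and 104.5 CPM in whole-cell control libraries and 174.8, 178.3 and 169.1 CPM in whole-cell miR-27a libraries. In the pulldown it had 71.9, 86.4 and 80.8 CPM after control mimic and 135.6, 151.3 and 129.6 CPM after miR-27a mimic. The groups did not overlap in either fraction, and the ratios of means were 1.62 and 1.74. The gene lies at chr19:37376403-37421859 of GRCm38. Its change in the pulldown was 0.79 ± 0.09 (SE, n = 3 per group, limma adjusted p = 4.45e-05).

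Kif20a, a cytokinesis motor that brings regulators to the central spindle, had 42.1, 43.4 and 41.0 CPM in whole-cell control libraries and 73.0, 74.9 and 72.3 CPM after miR-27a mimic. Its pulldown values were 34.0, 34.5 and 34.3 CPM after control mimic and 73.7, 62.9 and 67.4 CPM after miR-27a mimic. The groups were fully apart in both fractions. The log2 changes were 0.79 ± 0.05 (SE, limma adjusted p = 3.95e-11) in whole-cell RNA and 0.96 ± 0.09 (limma adjusted p = 7.79e-06) in the pulldown, the highest of the 39 kinesins in each. Cdc23 shares 29.3% of the exon bases of Kif20a on the opposite strand, and which strand setting the counting used was not stated in the labels. Cdc23 itself changed by -0.03 (limma adjusted p = 0.699) in whole-cell RNA and 0.04 (limma adjusted p = 0.802) in the pulldown.

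Kif23, a subunit of the centralspindlin complex of cytokinesis, rose from 25.4, 26.1 and 25.6 CPM to 43.2, 48.8 and 43.0 CPM in whole-cell RNA. The pulldown values were 15.4, 18.6 and 20.0 CPM after control mimic and 30.8, 31.4 and 36.7 CPM after miR-27a mimic. No control library reached a miR-27a library in either fraction. The changes were 0.78 ± 0.06 (SE, limma adjusted p = 2.85e-09) and 0.84 ± 0.12 (limma adjusted p = 0.000195). Racgap1 and Prc1, its partners in the central spindle, rose by 0.54 and 0.57 in whole-cell RNA and by 0.80 and 0.91 in the pulldown.

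Kif20b, which acts in the late stage of cytokinesis, had 24.6, 26.9 and 24.7 CPM in whole-cell control libraries and 39.1, 40.0 and 39.2 CPM after miR-27a mimic. In the pulldown, 11.1, 15.5 and 14.7 CPM stood against 17.8, 38.9 and 25.5 CPM. The groups were apart, but replicate 2 of the pulldown miR-27a group was higher than both other libraries of its group. Its pulldown rise of 0.89 ± 0.20 (SE, limma adjusted p = 0.00736) was not called without pulldown control replicate 1 (adjusted p = 0.0628). Without pulldown miR-27a replicate 2 the rise was 0.61 (adjusted p = 0.000517).

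Motors that position chromosomes moved the same way. Kif4, a chromosome arm motor, had 55.8, 57.7 and 53.9 CPM in whole-cell control libraries and 77.4, 80.5 and 77.5 CPM after miR-27a mimic. Its pulldown values were 32.6, 37.3 and 29.2 CPM and 54.4, 58.7 and 53.8 CPM. The groups were apart in both fractions. It rose by 0.48 ± 0.05 (SE, limma adjusted p = 5.73e-08) in whole-cell RNA and by 0.74 ± 0.10 (adjusted p = 0.000181) in the pulldown. Pdzd11 shares 15.1% of the exon bases of Kif4 on the opposite strand and fell by 0.19 in whole-cell RNA (limma adjusted p = 0.00694). Kif22, another chromosome arm motor, went from 27.9, 30.3 and 26.96 CPM to 45.3, 43.1 and 42.9 CPM in whole-cell RNA and from 22.9, 28.6 and 26.3 CPM to 52.6, 35.2 and 43.9 CPM in the pulldown. Its rises were 0.61 and 0.72, with no overlap. Without pulldown miR-27a replicate 2 the pulldown rise of Kif22 was 0.87 (limma adjusted p = 2.17e-09).

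Kif18a, which dampens chromosome movement, had 42.0, 37.7 and 36.5 CPM after control mimic and 45.9, 54.5 and 47.6 CPM after miR-27a mimic in whole-cell RNA. In the pulldown 27.8, 26.6 and 23.0 CPM stood against 34.2, 52.3 and 35.0 CPM, with replicate 2 of the miR-27a group the highest. Its rises were 0.34 and 0.61, and its pulldown call was lost without pulldown control replicate 3 (limma adjusted p = 0.0587). Without pulldown miR-27a replicate 2 the pulldown rise was 0.41 (adjusted p = 0.00241).

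Kif2c, which removes tubulin at centromeres to correct wrong attachments, had 30.5, 35.3 and 33.5 CPM in whole-cell control libraries and 50.6, 49.1 and 51.5 CPM after miR-27a mimic. Its pulldown values were 28.8, 28.8 and 29.2 CPM and 57.5, 46.7 and 53.4 CPM. It rose by 0.59 in whole-cell RNA and by 0.83 in the pulldown. Kif15, which supports the spindle beside Kif11, went from 36.7, 38.1 and 34.9 CPM to 48.8, 51.0 and 51.1 CPM in whole-cell RNA and from 22.1, 23.5 and 19.7 CPM to 33.0, 39.4 and 35.8 CPM in the pulldown. The rises were 0.45 and 0.70.

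Kifc1, a minus-end motor that gathers spindle poles, had 13.3, 15.9 and 15.8 CPM and 22.4, 22.9 and 21.4 CPM in whole-cell RNA after control and miR-27a mimic. In the pulldown it had 23.4, 20.4 and 25.9 CPM and 39.7, 32.5 and 38.5 CPM. It rose by 0.55 and 0.65. In Kif2c, Kif15 and Kifc1 the groups were apart in both fractions.

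The exceptions among mitotic kinesins were low in level. Kifc5b had 7.65, 8.05 and 7.88 CPM after control mimic and 7.87, 8.29 and 8.61 CPM after miR-27a mimic in whole-cell RNA, with overlapping groups and a change of 0.06 (limma adjusted p = 0.695). Its pulldown values were 9.11, 9.57 and 8.20 CPM and 13.1, 12.3 and 14.4 CPM. It rose there by 0.52 (limma adjusted p = 0.01), a call that leaving out replicate 3 of either group ended (0.0581 for control, 0.0693 for miR-27a). Kifc5b is a near-identical copy of Kifc1, so the division of reads between them is uncertain.

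Kif18b, which trims astral microtubules, had 5.74, 5.33 and 7.34 CPM after control mimic and 9.70, 8.23 and 11.99 CPM after miR-27a mimic in whole-cell RNA. It rose there by 0.62 ± 0.13 (SE, limma adjusted p = 0.000811). In the pulldown its change was 0.44 ± 0.19 (limma adjusted p = 0.155), with replicate 2 of the miR-27a group at 7.25 CPM beside 12.5 and 11.5 CPM. Without that library the adjusted p was 0.00134, and with the replicate number as a block it was 0.0486.

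Kif14 had 9.31, 8.70 and 8.88 CPM in whole-cell control libraries and 10.2, 12.4 and 10.6 CPM after miR-27a mimic. In the pulldown it had 10.4, 9.92 and 7.27 CPM against 13.7, 13.8 and 13.4 CPM, and the groups were apart in both fractions. It rose by 0.27 ± 0.10 (SE, limma adjusted p = 0.0463) in whole-cell RNA and by 0.54 ± 0.13 (adjusted p = 0.0145) in the pulldown. The whole-cell call was lost without control replicate 2 (0.0931) or 3 (0.102) and without miR-27a replicate 2 (0.212) or 3 (0.0762). The pulldown call was lost without control replicate 3 (0.0884) or miR-27a replicate 3 (0.0546).

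**Figure D2:**
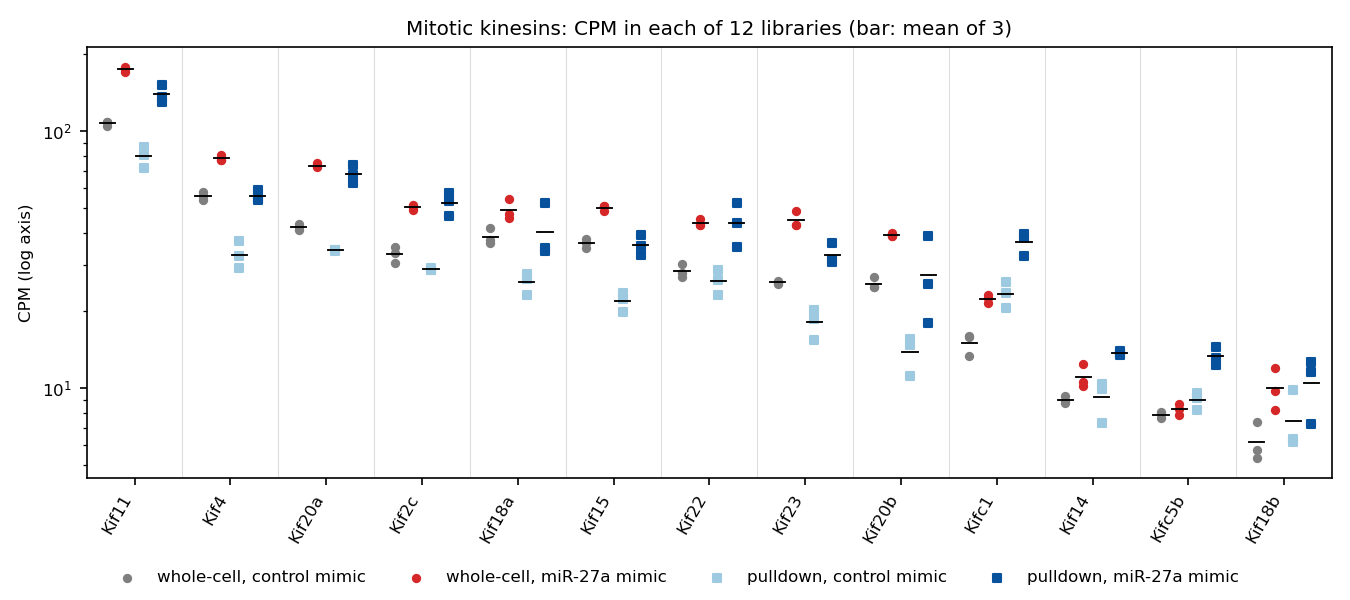
CPM of the 13 mitotic kinesins in each of the 12 libraries on a log axis, with a short bar at the mean of 3 libraries. Every miR-27a value lies above every control value of its fraction for 12 of 13 genes in whole-cell RNA (20.3% of all genes tested) and 12 of 13 in the pulldown (14.4%).

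In the pulldown, 13 of 39 kinesins rose and 1 fell. Of all 13586 genes tested there, 6.05% rose and 7.06% fell. The mitotic group held 12 of these 13 rises, with a median log2 change of 0.72 against -0.001 over all genes. Without pulldown miR-27a replicate 2, 15 kinesins rose and 3 fell. With the replicate number as a block, 15 rose and 2 fell, with Kif13a and Kif18b added to the rises and Kif21a to the falls.

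The 2 fractions were separate libraries. The sign of the change was shared by 29 of 39 kinesins (74.4%), near the 67.5% of all genes tested in both. In both fractions 12 kinesins rose (30.8%, against 4.17% of all genes), and 0 were called in opposite directions. Across the 39 genes Pearson's r between the 2 changes was 0.776, beside 0.639 across 13203 genes, both descriptions over genes that share each library.

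Other genes of the same stage were read beside the kinesins. The gene lists were chosen with earlier results of these data known. Of all genes tested, 13.0% rose and 11.9% fell in whole-cell RNA, and 6.05% rose and 7.06% fell in the pulldown. Of 16 mitotic partner genes 13 rose and 0 fell in each fraction, with median changes of 0.50 and 0.68. Cenpe, the kinesin outside the symbol rule, rose by 0.40 (limma adjusted p = 9.38e-07) in whole-cell RNA and by 0.81 (adjusted p = 0.0024) in the pulldown. All 5 proliferation markers rose in each fraction. Of 8 OPC markers, 4 rose and 1 fell in whole-cell RNA, where their sum was 2067 to 2117 CPM after control mimic and 2115 to 2137 CPM after miR-27a mimic. In the pulldown 3 of the 8 rose and 0 fell, and the sum was 3426 to 3483 CPM against 3900 to 3999 CPM. Astrocyte markers fell in 6 of 7 cases in whole-cell RNA, where their sum went from 7783 to 7799 CPM to 6398 to 6430 CPM, and in 6 of 7 in the pulldown. The sum of the mature oligodendrocyte markers was 11400 to 11910 CPM after control mimic and 10850 to 11240 CPM after miR-27a mimic in whole-cell RNA, where 1 of 8 rose and 4 fell. In the pulldown 6 of 8 fell, with a median of -0.75, and the sum was 5320 to 5963 CPM against 3896 to 4913 CPM. The sum of the endothelial and mural markers was 55.4 to 66.3 CPM against 28.1 to 31.4 CPM in whole-cell RNA and 48.5 to 50.9 CPM against 21.9 to 27.9 CPM in the pulldown. Of these 6 markers, 3 were tested in whole-cell RNA and 4 in the pulldown, and 2 fell and 0 rose in each. Their changes ran from -1.51 to 0.005 in whole-cell RNA and from -1.65 to -0.11 in the pulldown. The part of cell composition in the kinesin changes was not tested.

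Among transport kinesins 6 of 15 rose, 1 fell and 8 were not called in whole-cell RNA, where 13.0% of all genes rose and 11.9% fell. Their median change was 0.10. In the pulldown 1 rose, 0 fell and 14 were not called, with a median of 0.05, where 6.05% of all genes rose and 7.06% fell. Their summed level was 2774 to 2862 CPM after control mimic and 2931 to 2962 CPM after miR-27a mimic in whole-cell RNA.

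Kif1b, which carries synaptic vesicle precursors and mitochondria and is needed for myelin mRNA localisation in zebrafish, was the transport kinesin that rose in both fractions. It had 536.5, 488.6 and 505.7 CPM in whole-cell control libraries and 653.2, 626.4 and 641.9 CPM after miR-27a mimic. In the pulldown it had 459.4, 475.9 and 457.1 CPM against 605.0, 640.3 and 576.9 CPM. The groups did not overlap in either. The changes were 0.33 ± 0.03 (SE, limma adjusted p = 2.39e-07) and 0.39 ± 0.08 (adjusted p = 0.00448).

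Kif13a, which moves endosomes, had 181.1, 191.1 and 190.2 CPM in whole-cell control libraries and 217.7, 209.3 and 216.4 CPM after miR-27a mimic. Its rise was 0.19 ± 0.04 (SE, limma adjusted p = 0.000364). In the pulldown 336.1, 351.1 and 357.6 CPM stood against 395.2, 421.1 and 418.1 CPM, groups that were apart, with a change of 0.24 ± 0.08 (adjusted p = 0.0547). The pulldown change was called with the block (0.0101), without miR-27a replicate 1 (0.0317) and without miR-27a replicate 2 (0.0195).

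Kif1c, a fast carrier of vesicles and mRNA that holds 1 seed site, had 93.7, 100.2 and 96.1 CPM after control mimic and 122.8, 113.8 and 120.5 CPM after miR-27a mimic in whole-cell RNA. Its pulldown values of 83.7, 77.4 and 84.8 CPM and 86.8, 78.6 and 89.3 CPM overlapped. It rose by 0.30 ± 0.04 (SE, limma adjusted p = 1.64e-05) in whole-cell RNA and changed by 0.05 (adjusted p = 0.766) in the pulldown. Kif3c, a kinesin-II motor subunit, had 76.2, 78.5 and 77.8 CPM and 83.8, 87.1 and 89.1 CPM in whole-cell RNA, and 82.7, 90.1 and 86.5 CPM and 90.9, 87.6 and 94.5 CPM in the pulldown. It rose by 0.16 in whole-cell RNA, a call lost without miR-27a replicate 3 (limma adjusted p = 0.0667). Kifc2 rose by 0.38 from 3.76 to 4.56 CPM to 5.15 to 6.20 CPM. Leaving out control replicate 1 (limma adjusted p = 0.0665) or 3 (0.0536), or miR-27a replicate 1 (0.103) or 3 (0.0644), ended that call.

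Kif3a, the kinesin-II subunit that also serves cilium assembly, was the transport kinesin that fell. It had 197.5, 192.3 and 204.7 CPM in whole-cell control libraries and 171.4, 171.2 and 166.2 CPM after miR-27a mimic, with no overlap. It fell by 0.22 on the log2 scale (SE 0.04, limma adjusted p = 8.55e-05). In the pulldown, 131.7, 145.7 and 136.0 CPM stood against 108.1, 148.3 and 120.9 CPM, with a change of -0.14 (adjusted p = 0.42), and without miR-27a replicate 2 the change was -0.27 (0.00862). Kif3b, its motor partner, had 137.6, 139.9 and 139.2 CPM and 139.0, 137.7 and 141.0 CPM in whole-cell RNA, and 108.0, 114.5 and 107.4 CPM and 98.3, 107.8 and 97.5 CPM in the pulldown. It changed by 0.003 in whole-cell RNA, and Kifap3, the subunit that joins them to cargo, by -0.04 (limma adjusted p = 0.503).

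The conventional kinesins showed no call in either fraction. Kif5b had 1124, 1065 and 1071 CPM after control mimic and 1044, 1093 and 1035 CPM after miR-27a mimic in whole-cell RNA, with overlapping groups and a change of -0.04 ± 0.03 (SE, limma adjusted p = 0.409). Its pulldown values after miR-27a mimic, 371.2, 613.7 and 470.6 CPM, spread around the control values of 441.1, 502.6 and 468.2 CPM. The pulldown change was 0.016, and without miR-27a replicate 2 it was -0.17 (limma adjusted p = 0.129). Kif5c, which is high in neurons, had 178.6, 180.9 and 182.3 CPM and 174.5, 184.5 and 176.0 CPM in whole-cell RNA, and 162.6, 164.4 and 161.2 CPM and 159.9, 183.3 and 164.8 CPM in the pulldown. The groups overlapped, and the whole-cell change was -0.02.

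Kif5a, a neuronal form, had 45.1, 46.3 and 43.2 CPM and 48.4, 49.9 and 46.1 CPM in whole-cell RNA, and 29.4, 24.4 and 27.8 CPM and 27.1, 25.7 and 25.8 CPM in the pulldown, with changes of 0.10 and -0.05. Kif1a, a carrier of synaptic vesicle precursors, had 181.2, 180.2 and 183.0 CPM and 181.2, 165.1 and 173.4 CPM in whole-cell RNA, and 190.5, 158.0 and 172.7 CPM and 199.8, 141.0 and 174.5 CPM in the pulldown. Neither gene was called, and the summed level of neuron markers was 489.1 to 519.7 CPM in the whole-cell libraries. The pulldown change of Kif1a was -0.03, and 0.11 without miR-27a replicate 2 (limma adjusted p = 0.369). Kif16b, an endosome motor, had 33.5, 29.6 and 30.0 CPM and 33.4, 32.3 and 33.9 CPM in whole-cell RNA, and 25.6, 28.8 and 26.4 CPM and 26.0, 33.6 and 26.2 CPM in the pulldown, with overlapping groups and no call. Klc1, a light chain of conventional kinesin, changed by 0.04 (limma adjusted p = 0.518). Of 19 transport partner genes tested, 1 rose and 2 fell in whole-cell RNA, where 13.0% of all genes rose and 11.9% fell. In the pulldown 0 rose and 2 fell, where 6.05% of all genes rose and 7.06% fell. Fez2, an adaptor of conventional kinesin, fell in both, by 0.19 and by 0.34.

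**Figure D3:**
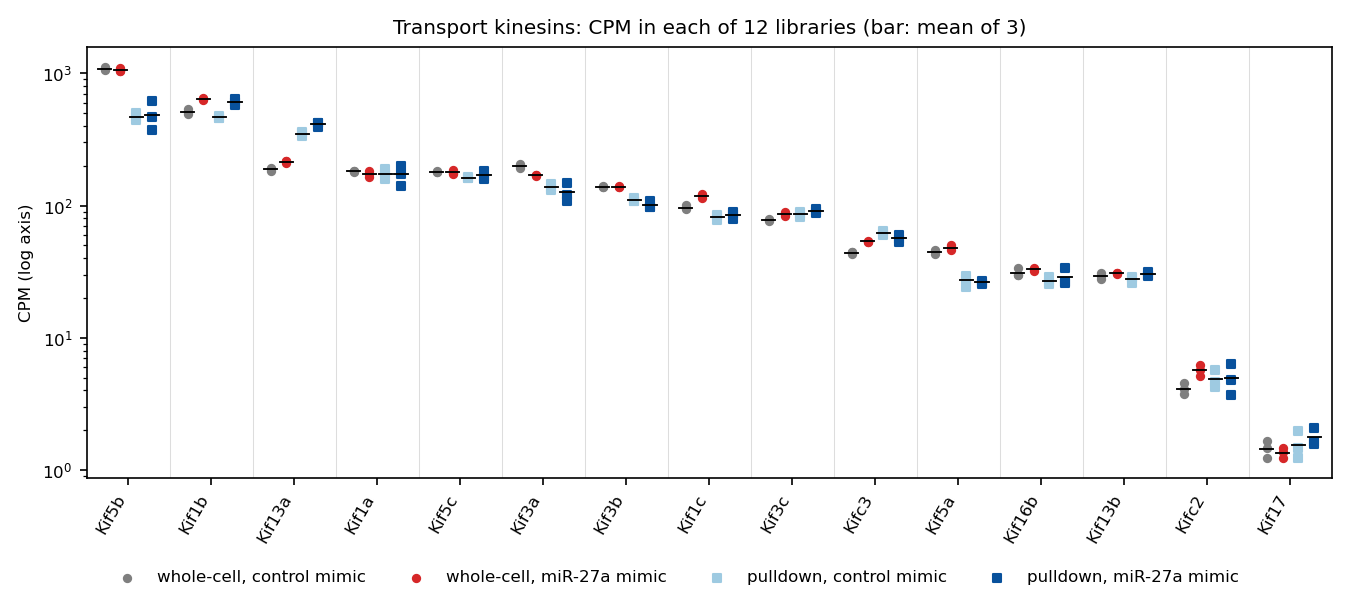
CPM of the 15 transport kinesins in each of the 12 libraries on a log axis, with a short bar at the mean of 3 libraries. Kif5b lies at 1035 to 1124 CPM in whole-cell libraries and at 371.2 to 613.7 CPM in pulldown libraries, and Kif13a is higher in every pulldown library than in any whole-cell library.

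Among the 11 regulators, 3 rose and 1 fell in whole-cell RNA, where 13.0% of all genes rose and 11.9% fell. In the pulldown 0 rose and 1 fell, where 6.05% of all genes rose and 7.06% fell. Kif26a, an atypical kinesin without ATPase activity that dampens growth factor signalling, had 32.5, 31.7 and 34.6 CPM in pulldown control libraries and 15.7, 19.0 and 24.8 CPM in pulldown miR-27a libraries, with no overlap. Its change was -0.725 (SE 0.13, limma adjusted p = 0.00189). In whole-cell RNA it had 26.1, 32.5 and 28.4 CPM against 32.2, 25.6 and 28.8 CPM, overlapping groups with a change of -0.004 (adjusted p = 0.977). Its 3' untranslated region held none of the 3 seed site letters.

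Kif19a, which shortens motile cilia, had 46.5, 60.1 and 54.3 CPM in whole-cell control libraries and 71.7, 62.0 and 68.6 CPM after miR-27a mimic. It rose by 0.33 ± 0.07 (SE, limma adjusted p = 0.00103), and changed by -0.01 (adjusted p = 0.952) in the pulldown. Of 3 ependymal and ciliated markers tested in whole-cell RNA, 1 rose. Foxj1, the regulator of motile cilium genes, rose by 0.735 (limma adjusted p = 1.04e-07), while Rsph1 changed by 0.30 (adjusted p = 0.192) and Rarres2 by -0.22 (adjusted p = 0.214). In the pulldown none of the 3 was called. The part of ciliated cells in the Kif19a change was not tested.

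Kif6, a low-level kinesin linked to ependymal cilia, fell from 2.74, 3.49 and 1.87 CPM to 1.35, 1.48 and 1.24 CPM in whole-cell RNA (change -0.63, SE 0.16, limma adjusted p = 0.00513). The groups were apart, and its pulldown change was -0.27 (adjusted p = 0.429). Kif24, a centriole kinesin, and Kif9, a cilium kinesin, rose by 0.365 and 0.38 from under 6 CPM. The call of Kif24 did not survive leaving out control replicate 2 (limma adjusted p = 0.0508) or 3 (0.116), or miR-27a replicate 1 (0.105) or 3 (0.125). That of Kif9 was lost without control replicate 2 (limma adjusted p = 0.117) or 3 (0.15) and without miR-27a replicate 1 (0.0809), 2 (0.109) or 3 (0.112).

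Kif21a, which stops microtubule growth at the cell cortex and holds 1 seed site, had 89.8, 98.4 and 87.9 CPM in pulldown control libraries and 63.0, 95.9 and 75.5 CPM after miR-27a mimic. The groups overlapped through replicate 2 of the miR-27a group, and the change was -0.25 ± 0.12 (SE, limma adjusted p = 0.197). Without that library the change was -0.41 (0.000173), and with the block the adjusted p was 0.0437. In whole-cell RNA the change was -0.09 (adjusted p = 0.0694).

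**Figure D4:**
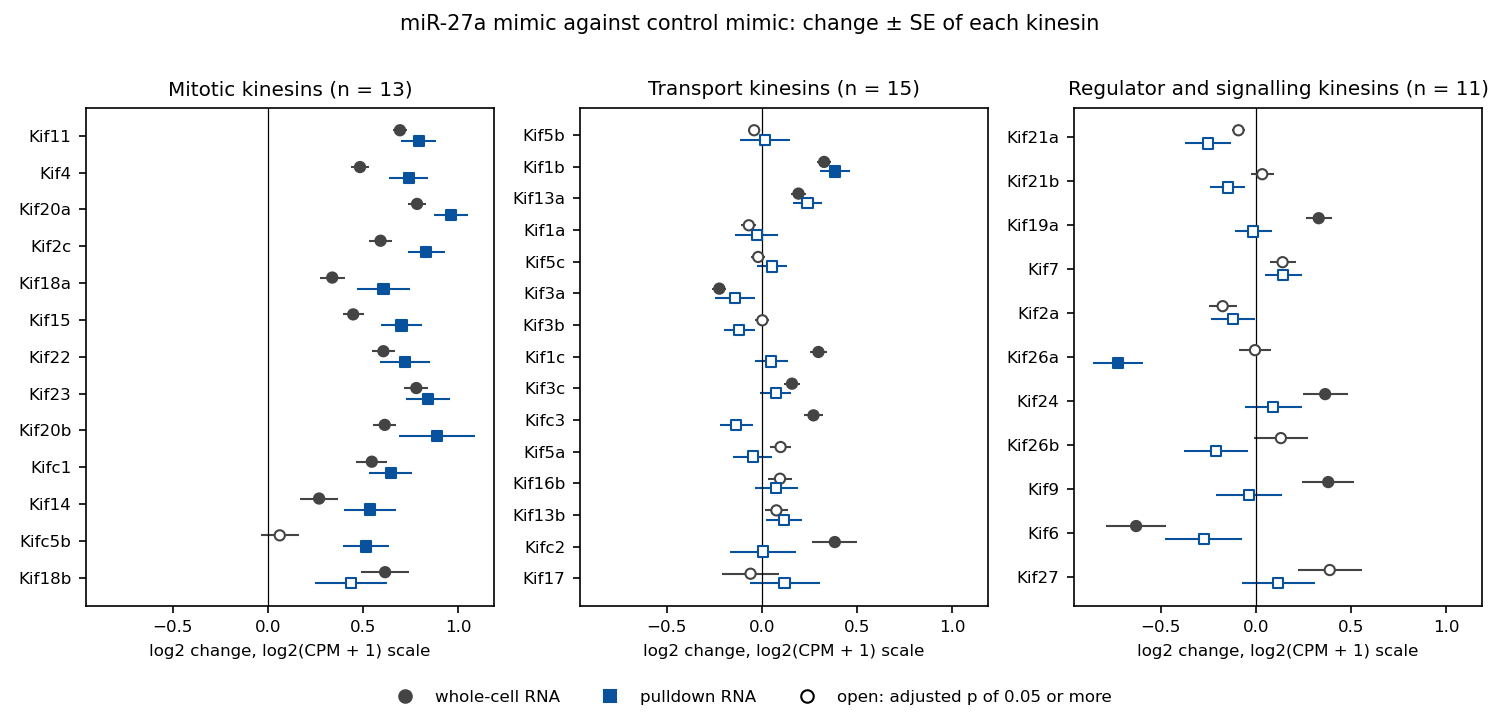
Log2 change ± SE of each kinesin between miR-27a and control mimic, on the log2(CPM + 1) scale, in whole-cell RNA (circles) and pulldown RNA (squares), with genes ordered by mean CPM within each role and open symbols for adjusted p of 0.05 or more. All 13 mitotic kinesins lie to the right of 0 in both fractions, transport kinesins lie between -0.22 and 0.39, and Kif26a is the filled square on the left.

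Seed sites and changes were set side by side. In whole-cell RNA the 9 kinesins with a site had a median change of 0.27, with 5 higher and 0 lower. The 30 without had a median of 0.23, with 16 higher and 2 lower, where 13.0% of all genes were higher and 11.9% lower. In the pulldown the medians were 0.05 and 0.12. Over all genes with a site the medians were -0.02 in whole-cell RNA (3474 genes) and -0.03 in the pulldown (3521 genes).

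The second comparison set pulldown RNA against whole-cell RNA under the same mimic. With control mimic 6 of 39 kinesins were higher and 16 lower in the pulldown, where 31.7% of 13875 genes were higher and 30.3% lower. With miR-27a mimic 7 were higher and 14 lower, against 29.3% and 30.9% of all genes. Without pulldown miR-27a replicate 2 the counts were 7 and 18 with control mimic and 5 and 16 with miR-27a mimic. The calls of Kif14 (limma adjusted p = 0.0661) and Kif2a (0.072 from 0.0215) were then lost with miR-27a mimic. Kif5c (0.0263) and Kif16b (0.000951) were then called lower with miR-27a mimic. With control mimic, Kif16b (limma adjusted p = 0.0205) and Kif19a (0.0364) were then called lower and Kif2a (0.02) higher. Kif2a, which takes tubulin off microtubule ends, was also not called with miR-27a mimic without whole-cell miR-27a replicate 3 (limma adjusted p = 0.125) or pulldown miR-27a replicate 3 (0.0937). These are different kinds of RNA preparation, and the labels do not say what a difference between them measures.

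For Kif5b the pulldown and whole-cell groups were far apart, and the difference after control mimic was -1.21 ± 0.11 (SE, limma adjusted p = 5.16e-08). With miR-27a mimic it was -1.15. Kif5a, the neuronal form, differed by -0.71 with control mimic and -0.85 with miR-27a mimic. Kif5c, the remaining form, differed by -0.15 with control mimic (limma adjusted p = 0.0333), a call lost without any 1 of the 3 whole-cell control libraries or of pulldown control replicates 1 and 3 (0.0567 to 0.091).

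Kif21a was lower in the pulldown, with differences of -1.10 after control mimic and -1.26 after miR-27a mimic. Kif3a and Kif3b were lower with each mimic, with differences of -0.52 and -0.335 after control mimic, and Kifap3 differed by -0.56. Dynein and dynactin, the motor of the opposite direction, were lower in 26 of 29 genes tested after control mimic, against 30.3% of all genes. After miR-27a mimic 25 of 29 were lower, against 30.9%.

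Kif13a went the other way. It was 1.86 times its whole-cell mean in the pulldown after control mimic and 1.92 times after miR-27a mimic, with no overlap. The differences were 0.89 ± 0.05 (SE, limma adjusted p = 2.43e-10) and 0.94 ± 0.05 (adjusted p = 1.14e-10). Kif26b, an atypical kinesin of development, had 2.49, 1.72 and 2.07 CPM in whole-cell and 6.41, 4.25 and 4.46 CPM in pulldown control libraries. Kif21b, a relative of Kif21a, had 46.0, 52.7 and 53.9 CPM and 69.8, 73.3 and 81.3 CPM. Kif26b, Kif21b and Kifc1 were higher in the pulldown with each mimic, by 0.96, 0.55 and 0.60 after control mimic.

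Of the 13 mitotic kinesins, 8 were lower and 1 higher in the pulldown after control mimic, against 30.3% and 31.7% of all genes. After miR-27a mimic 6 of them were lower and 3 higher, against 30.9% and 29.3% of all genes. Among the lower calls, that of Kif2c after control mimic (limma adjusted p = 0.0478) was lost in 12 of 19 alternatives. After miR-27a mimic, that of Kif18a (limma adjusted p = 0.0432) was lost in 9 of 19 and that of Kif20b in 1. Without pulldown miR-27a replicate 2 the Kif18a difference went from -0.30 to -0.495 (limma adjusted p = 1.98e-05). Kif20b and Kif4 had the lowest values after control mimic, -0.85 and -0.745. Kifc1 was the mitotic kinesin higher with each mimic, and Kif14 and Kifc5b were higher with miR-27a mimic (0.29 and 0.62). The Kif14 call had an adjusted p of 0.0414 by limma, and it did not hold without whole-cell control replicate 3, whole-cell miR-27a replicate 1 or 3, or any 1 of the 3 pulldown miR-27a libraries (0.0508 to 0.146).

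**Figure D5:**
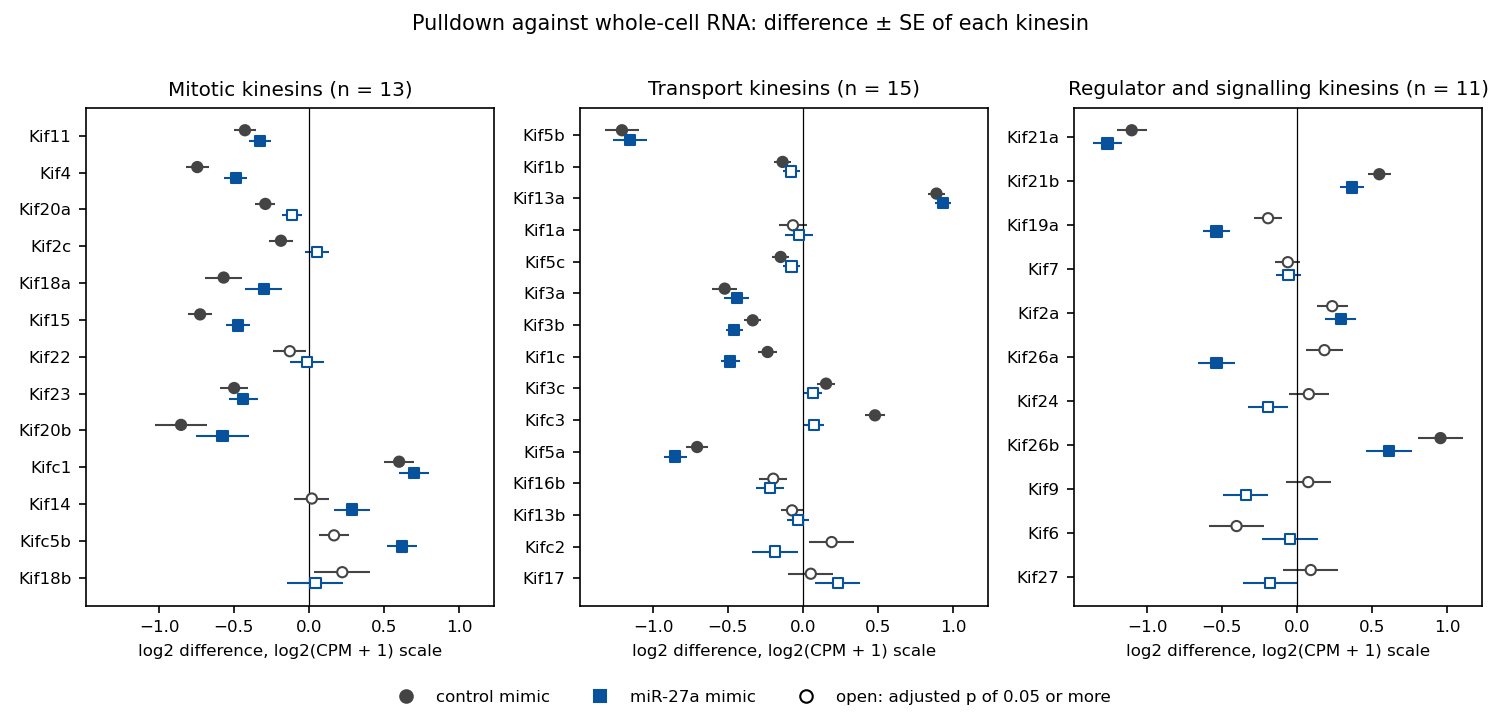
Log2 difference ± SE of each kinesin between pulldown and whole-cell RNA, on the log2(CPM + 1) scale, with control mimic (circles) and miR-27a mimic (squares) and open symbols for adjusted p of 0.05 or more. Kif5b and Kif21a are the lowest at about -1.21 and -1.10 with control mimic, and Kif13a lies at 0.89 and 0.94.

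The third comparison asked whether the difference between pulldown and whole-cell RNA itself changed with the mimic. By that test 0 kinesins were higher and 1 was lower, where 0.339% of 13875 genes were higher (47) and 0.735% lower (102). With median-of-ratios scaling the genes were 53 and 72.

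Kifc3, a minus-end kinesin of epithelial junctions and Golgi positioning, was the 1 called. It had 43.3, 44.5 and 44.7 CPM in whole-cell control libraries and 53.1, 54.1 and 53.4 CPM after miR-27a mimic. In the pulldown it had 61.6, 60.1 and 64.35 CPM after control mimic and 56.3, 53.3 and 59.7 CPM after miR-27a mimic. It was higher with miR-27a in every whole-cell library and lower in every pulldown library. The difference was -0.41 ± 0.09 (SE, limma adjusted p = 0.034). The call was lost without any 1 of the 6 whole-cell libraries or of pulldown control replicates 1 and 3 (adjusted p 0.0665 to 0.111).

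The same difference was -0.72 ± 0.18 for Kif26a (SE, limma adjusted p = 0.0562), and it was called in 4 of 19 alternatives (range 0.0128 to 0.184). The 4 were the replicate block (0.0467) and the fits without pulldown miR-27a replicate 1 (0.0482), 2 (0.0138) or 3 (0.0128). Without replicate 2 of that group, Kif21a was called as well, at -0.32 (limma adjusted p = 0.0383). For the mitotic kinesins the same difference was positive in 12 of 13 genes with a median of 0.24 and 0 calls. Over all genes tested it was positive in 6530 of 13875, with a median of -0.01. Without pulldown miR-27a replicate 2, mitotic values moved both ways. That of Kif20b went from 0.28 to -0.003 and that of Kif18a from 0.27 to 0.075. That of Kif22 went from 0.11 to 0.26 and that of Kif18b from -0.18 to 0.04. Tpx2, a spindle assembly factor among the mitotic partners, was called at 0.37 (limma adjusted p = 0.0431).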

How the data were processed

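RNA was sequenced from 12 libraries. The authors deposited 1 table of log2 CPM values for 20540 genes. Per the labels and series text, reads were trimmed with skewer, aligned with HISAT2 to GRCm38, counted with featureCounts and normalised in edgeR; the submitters' processing notes also name mm8. Values were turned back to CPM, and to whole reads (100% whole within 0.01 reads). Log2(CPM + 1) values went into limma's moderated test with a mean trend (version 3.58.1, under R 4.3.3), keeping genes with at least 1 CPM in 3 libraries, with a threshold of 0.05 after Benjamini-Hochberg adjustment. Each mimic comparison used its 6 libraries, and the others used all 12. The code was tested on simulated data. The members and gene lists were chosen with earlier results of these data known. Library values are given for the 12 mitotic and 12 transport kinesins with the highest CPM, and for up to 4 kinesins with the largest rise and fall among those called in each comparison. Other kinesins, Klc1, Kifap3, Fez2, Foxj1, Rsph1, Rarres2, Racgap1 and the genes that overlap a kinesin were named for their role, after their values were seen. Same-numbered pulldown libraries deviated together between the mimics (r = 0.135, 0.275 and 0.107), and whole-cell libraries did not (0.001, -0.028 and -0.034). Between whole-cell and pulldown libraries, r was 0.015, 0.161 and 0.132 with miR-27a mimic and -0.055, -0.097 and 0.012 with control mimic. The main tests were all unpaired, and the replicate number was used only as the block of an alternative fit. Seed sites used GENCODE M21 exons, and promoters used RefSeq windows; 12 mitotic, 10 transport and 9 regulator genes had a window. Sequences from chromosome 18 are not shown.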

Additional observations from a re-analysis of the deposited data

Results flagged for a closer look

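Kifc3 rose with the miR-27a mimic in whole-cell RNA by 0.27 ± 0.05 (SE, limma adjusted p = 0.000291) and changed by -0.13 ± 0.09 (adjusted p = 0.352) in the pulldown. The 2 effects differed by -0.41 ± 0.09 in the test of the difference itself (limma adjusted p = 0.034, range 0.0155 to 0.111 over the alternatives). Kif26a, at -0.72 (limma adjusted p = 0.0562), did not pass the same test. It did in 4 of 19 alternatives, among them the replicate block (0.0467), with a range of 0.0128 to 0.184.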

How the results depend on the processing

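Alternatives were the deposited log2 CPM values, a pseudocount of 0.5, no filter, a filter of 5 CPM, median-of-ratios scaling, voom on the recovered reads, the replicate block, all 12 libraries in the mimic fits, and leaving out each library. The whole-cell count of 23 changed kinesins ranged from 16 to 23 and from 18 to 22 without 1 library. The pulldown count of 14 ranged from 11 to 17 and from 11 to 18 without 1 library. Mitotic kinesins that rose numbered 10 to 12 in whole-cell RNA and 9 to 13 in the pulldown. Pulldown against whole-cell counts stayed at 18 to 25 (control mimic) and 18 to 22 (miR-27a mimic). The count of 1 for the difference between fractions was 2 with the replicate block and 0 to 3 without 1 library; the cause was not tested. With the replicate block the other counts were 21, 17, 21 and 21. Of 3289 values for single genes, 3145 stayed on their side of the threshold (67 of them, called in neither fit, changed sign), 104 lost the call, 40 gained it and 0 called values reversed. With all 12 libraries, the whole-cell calls of Kif3a (limma adjusted p = 0.101), Kif3c (0.101) and Kif18a (0.0937) were lost. Those of Kif14 (0.17), Kifc2 (0.125), Kif24 (0.0939) and Kif9 (0.122) were lost there too. The 9 kinesins with a seed site were also 9 over all annotated isoforms. Without a filter the pulldown calls of Kif14 (0.0641), Kif18a (0.0535) and Kif20b (0.0655) were lost. Depth limits the low members most: Kif6 rested on 22 to 59 reads per library.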
